A study of Mus musculus with 11 samples.

Results

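The 10 genes described here are receptors of vascular endothelial growth factor (VEGF) and genes known from endothelial cells: Flt1, Kdr, Nrp1, Nrp2, Tek, Erg, Egfl7, Pecam1, Cdh5 and Esam. They were chosen by gene symbol, older synonym or accession, among 27567 genes named on the array, and 22 of its 41121 usable probes carried one of these names. The samples were cardiac progenitor cells of mice and C2C12 cells, an established line of mouse myoblasts that fuse into muscle fibres, and their total RNA was labelled with Cy3 for 11 single-colour arrays. Of the 10 genes, 5 were detected on enough arrays to be tested, and the other 5 were above background on at most 1 array.

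The arrays fell into 3 groups. The 5 KO arrays held progenitors from beta-sarcoglycan null mice, taken from ventricle (2 arrays), aorta (2 arrays) and atrium (1 array). The 3 WT arrays held progenitors from ventricle, aorta and atrium of wild-type mice, and the 3 C2C12 arrays held the myoblast line, used as the control for myogenic differentiation. The series text calls the progenitors mesoangioblasts, vessel-associated progenitors. The labels give no strain, age, passage or culture state, and nothing tells whether 2 arrays of a group stand for different mice or cultures. The p-values therefore cover only how these samples varied, and that variation may be technical.

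On each array 48.99 to 61.96% of probes were well above background. In 3 of 16 pairs of arrays of 1 group the values differed by less than the noise between repeated spots (KO ventricle, KO aorta and C2C12, each on slides 1 and 3), and each such pair was averaged and counted as 1 sample. That left 3 KO samples and 3 WT samples, 1 per region, and 2 C2C12 samples. No slide held both KO and WT: the 3 WT arrays were on slide 2, the KO arrays were on slides 1 and 3, and C2C12 was on all 3. A second fit therefore set slide 2 against slides 1 and 3 as a block, tied through C2C12, and is given below as the slide-blocked value. The targeted gene was not lower in the KO samples. The brightest Sgcb probe read 2.34 to 2.99 in the KO samples and 1.82 to 2.20 in the WT samples. That difference of 0.63 missed the 0.05 threshold (adjusted p = 0.0710 with limma). For a second Sgcb probe the groups overlapped, at 0.06 to 0.99 in KO and -0.04 to 0.26 in WT samples. Its difference was 0.41 (adjusted p = 0.288, limma fit of every probe). Whether these probes lie within the sequence altered in the null mice was not tested, so their values do not decide the genotype. The groups are therefore called KO-labelled and WT-labelled. The check of cell type gave a further difference. Markers of skeletal myoblasts (Myod1, Myf5, Myog, Des, Cdh15 and Chrna1) were higher in the KO-labelled than in the WT-labelled samples for 6 of 6 genes. Of all genes tested, 29.7% were called in that comparison (adjusted p under 0.05). Myf5, Myog and Cdh15 were above background on no WT-labelled array. They entered the test through KO-labelled arrays alone and so had to differ, and the count over the 6 is a description. The summed level of the 6 markers was 46.36 to 148.7 times the 75th percentile in KO-labelled samples, 0.0991 to 0.143 in WT-labelled samples and 70.44 to 151.8 in C2C12. Their part in the results below was not tested.

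VEGF acts on endothelial cells mainly through the receptor tyrosine kinase KDR (VEGFR2), which drives proliferation, migration and permeability. FLT1 (VEGFR1) binds VEGFA, VEGFB and placental growth factor tightly, signals weakly, and is also made as a secreted form that holds ligand back from KDR. The neuropilins NRP1 and NRP2 are co-receptors that bind both VEGF family members and class 3 semaphorins, and they are found on many cells besides endothelium. TEK (TIE2) is the angiopoietin receptor, ERG is an ETS-family transcription factor that maintains endothelial gene expression, and EGFL7 is a secreted protein of vessel walls. PECAM1, CDH5 (VE-cadherin) and ESAM hold endothelial cells together at their junctions.

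Values below are log2 processed signals from which the array's own 75th percentile was subtracted, so 0 is that percentile and 1 unit is a doubling. They compare a probe with itself across samples and do not rank genes by abundance. In bulk RNA, fewer cells of a type and less RNA per cell cannot be told apart.

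Kdr, Pecam1 and Cdh5, which mark endothelium, were well above background on none of the 11 arrays. Each had 2 probes, and both probes gave the same outcome. Kdr probes lie at mm8 chromosome 5, 76214981 to 76215040 and 76243311 to 76243370, and their processed signals were 5.51 to 10.3 in KO-labelled arrays, 4.82 to 11.96 in WT-labelled arrays and 2.88 to 8.91 in C2C12. Pecam1 (mm8 chromosome 11, 106497165 to 106499018 and 106497834 to 106497893) gave signals of 4.25 to 10.3 in KO-labelled arrays, 4.45 to 11.8 in WT-labelled arrays and 2.62 to 6.78 in C2C12. Cdh5 (mm8 chromosome 8, 107032728 to 107032787 and 107033388 to 107033447) gave 5.14 to 12.2 in KO-labelled arrays, 5.53 to 14.0 in WT-labelled arrays and 3.25 to 8.03 in C2C12. For comparison, the 75th percentile of signal was 960.6 to 1145 on the 11 arrays. These readings carry no order between groups.

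Tek and Esam were each above background on 1 array, the C2C12 array of slide 1. There the upstream Tek probe (mm8 chromosome 4, 94233814 to 94233873) had a processed signal of 18.7 and the Esam probe (mm8 chromosome 9, 37287630 to 37287689) one of 13.4. The other C2C12 arrays did not detect either gene, nor did any KO-labelled or WT-labelled array. Some signals that were not called were brighter. Tek reached 24.6 on the C2C12 array of slide 2, 22.9 in KO-labelled and 19.95 in WT-labelled arrays. Esam reached 16.6 in KO-labelled and 16.8 in WT-labelled arrays. The dimmest scaled log2 signal called well above background was lowest on the slide 1 C2C12 array (-6.41, and up to -4.45 elsewhere). These detections therefore carry no order between groups. The downstream Tek probe (mm8 chromosome 4, 94366188 to 94366246) was above background nowhere. Neither gene was tested.

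**Figure D1:**
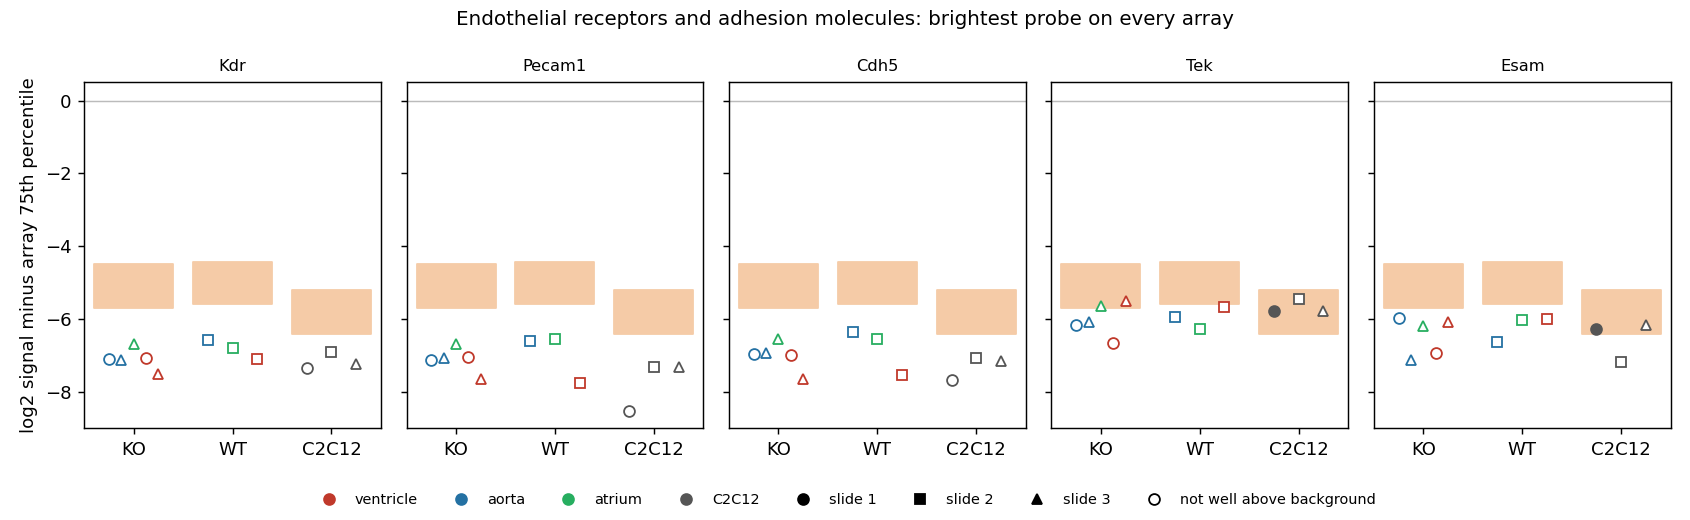
Scaled log2 signal (vertical axis, 0 = array 75th percentile) of the brightest probe of Kdr, Pecam1, Cdh5, Tek and Esam on every KO, WT and C2C12 array; open symbols are not well above background, colours are regions, shapes are slides, and the shaded band is the range, over the arrays of a group, of the dimmest signal that the software still called well above background. Only the slide 1 C2C12 array has filled symbols, for Tek and Esam.

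Other endothelial markers divided the WT-labelled samples from the rest in part. Of 20 markers, 14 were above background on some array, and Tie1, Flt4, Emcn, Robo4, Clec14a and Sox18 on none. Most arrays of a group detected 6 of the 20 in KO-labelled cells, 9 in WT-labelled cells and 7 in C2C12. Their summed level was 1.938 to 2.921 in KO-labelled samples, 4.673 to 8.166 in WT-labelled samples and 2.134 to 4.94 in C2C12. This sum follows its brightest genes, Ramp2 and, in WT-labelled samples, also Ecscr. Ramp2 read 0.02 to 0.89 in KO-labelled samples, -0.13 to 1.53 in WT-labelled samples and -0.45 to 1.94 in C2C12. It was not called between KO-labelled and WT-labelled samples (adjusted p = 0.831 with limma), and is named after its values were seen. Among the 9 tested between KO-labelled and WT-labelled samples, Nos3 was higher, and Mmrn2, Ecscr, S1pr1 and Cd93 were lower, where 29.7% of all genes tested were called. With the slide block none of these 5 calls held (adjusted p = 0.182 for Nos3, 0.159 for Mmrn2, 0.104 for Ecscr, 0.280 for S1pr1 and 0.776 for Cd93), and Cd93 was then -0.27 in place of -1.99. Mmrn2 was above background on no KO-labelled array, so it passed the filter through WT-labelled arrays alone. These are named because they were called, after their values were seen. The defining receptor and junction genes thus stayed undetected in the WT-labelled samples, while some other genes of the list were detected there.

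Of the 10 members, 5 passed the filter on dim probes, and these differed between KO-labelled and WT-labelled samples: Flt1 and Nrp2 were higher, and Nrp1, Erg and Egfl7 were lower. Across all 15002 genes tested, 29.7% were called (13.7% higher and 16.1% lower), so a call was common in this comparison. Erg passed the filter through its WT-labelled arrays alone and so had to differ, and the count over the 5 is a description. The same holds for every gene given below as at least N-fold between KO-labelled and WT-labelled samples, so its p-value describes the fit and supports nothing further. The 3 KO-labelled values and the 3 WT-labelled values did not overlap for 5 of 5 members, against 49.2% of all genes. With the slide block, 0 of the 5 were called, against 5.64% of all genes, and the signs of all 5 differences were as before. The standard errors of all 5 were larger with the block, which rests on 2 C2C12 samples.

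**Figure D2:**
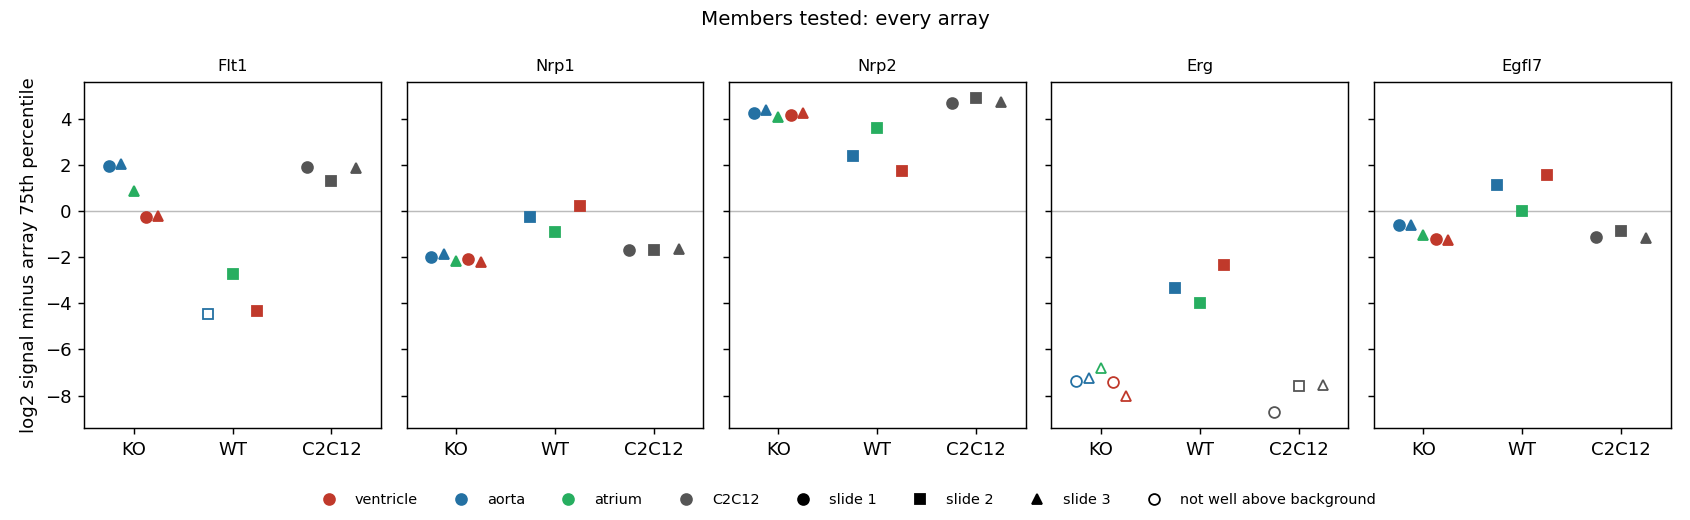
Scaled log2 signal (vertical axis, 0 = array 75th percentile) of Flt1, Nrp1, Nrp2, Erg and Egfl7 on every KO, WT and C2C12 array; colours are regions, shapes are slides and open symbols are not well above background. KO and WT arrays overlap in no panel, and Erg is filled in WT alone.

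Flt1 had the largest measured difference of the 5 tested members. Its brightest probe lies at mm8 chromosome 5, 147872564 to 147872623, on the minus strand. It read -0.24 in KO-labelled ventricle, 2.01 in KO-labelled aorta and 0.85 in KO-labelled atrium, against -4.33 in WT-labelled ventricle, -4.45 in WT-labelled aorta and -2.71 in WT-labelled atrium. It read 1.88 and 1.29 in C2C12. The KO-labelled samples were all above the WT-labelled ones, with the KO-labelled aorta above and the KO-labelled atrium and ventricle below both C2C12 samples, and the WT-labelled aorta array was not above background. The means were 0.87 ± 1.12 in KO-labelled samples and -3.83 ± 0.97 in WT-labelled samples (SD, n = 3 each), a difference of 4.70 (SE 0.70, adjusted p = 0.00485) or 26.0-fold. The slide-blocked difference was 4.11 (SE 1.41, adjusted p = 0.182).

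The array has 5 probes that carry the name Flt1, which were not alike. Of the 9 member probes tested one by one, 4 were higher and 4 lower in KO-labelled samples, against 29.1% of all probes called. The second Flt1 probe, 73 bases further upstream in the gene, differed by 4.91 (adjusted p = 0.00529 in the fit of every probe), at least 9.92-fold since no WT-labelled array was above background. The next one, 75990 bases upstream of the first (mm8 chromosome 5, 147948554 to 147948613), read -3.62, -1.21 and -2.26 in KO-labelled ventricle, aorta and atrium and was above background on no WT-labelled array, which makes it at least 5.82-fold higher in KO-labelled samples (adjusted p = 0.0109). All 3 detected probes put the KO-labelled samples in the order aorta, atrium, ventricle. The remaining 2 probes, 83341 and 92185 bases upstream, were above background on no array in any group. The array design gives no exon for these positions, so which Flt1 transcripts each probe reads is not known here.

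**Figure D3:**
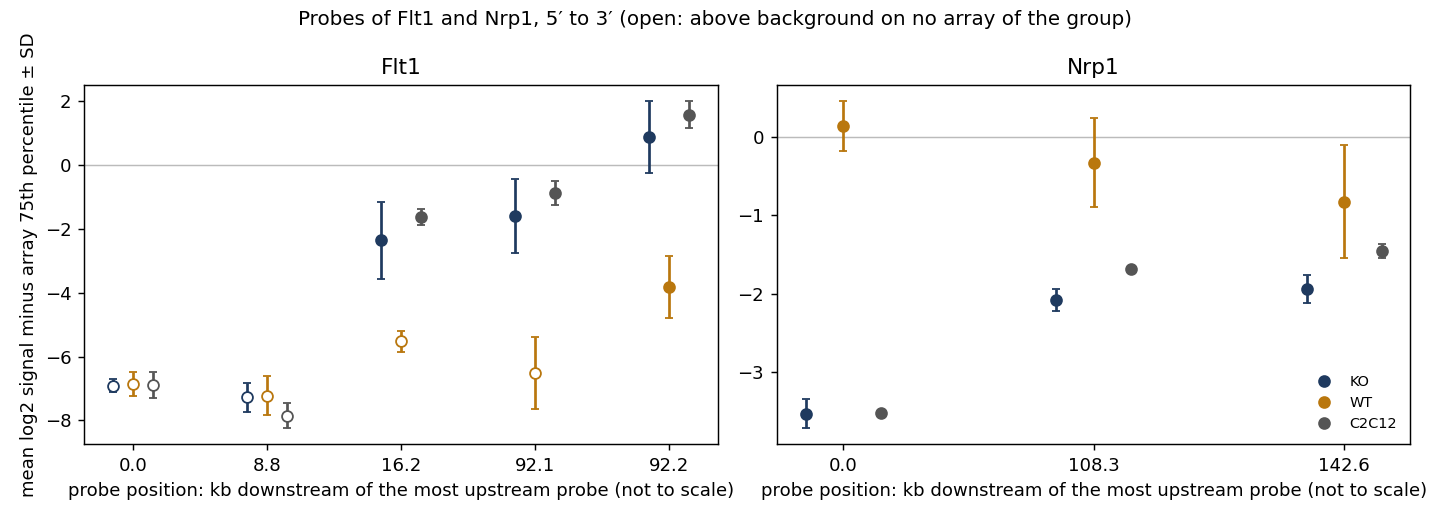
Mean scaled log2 signal ± SD (vertical axis) of each Flt1 and Nrp1 probe in KO, WT and C2C12 samples, placed from 5′ to 3′ along the gene and labelled with the distance from the most upstream probe in kb (spacing not to scale); open symbols are probes above background on no array of that group. The 3 most downstream Flt1 probes are detected in KO and C2C12, and the gap between WT and the other groups in Nrp1 is widest at the most upstream probe.

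The promoter of Flt1 is shown because this gene had the largest difference, and those of Nrp2, Nrp1 and Egfl7 because they differed in the same or the other direction. The sequences are RefSeq's, from build GRCm38.p6, and run from 250 bases before to 50 after a start site, 5′ to 3′ on the strand of the gene. Promoters were found for 7 members (11 promoters). Capitals mark 4 motifs searched on both strands: TGACGTCA, the cyclic AMP response element, TATAAA, the TATA box, GGAAGT, an ETS-family core, and GGGCGG, the GC box. Overlapping GC boxes run together. Of 32851 promoters of that length, TGACGTCA is in 1.79%, TATAAA in 13.62%, GGAAGT in 23.77% and GGGCGG in 35.66%.
Flt1, chr5:147725962-147726261, minus strand: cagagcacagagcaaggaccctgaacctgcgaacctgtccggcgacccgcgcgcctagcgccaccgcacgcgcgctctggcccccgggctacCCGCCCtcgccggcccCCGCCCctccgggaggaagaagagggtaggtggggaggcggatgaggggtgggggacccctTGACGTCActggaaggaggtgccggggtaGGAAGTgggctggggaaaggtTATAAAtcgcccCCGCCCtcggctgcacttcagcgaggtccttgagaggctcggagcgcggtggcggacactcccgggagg
Nrp2, chr1:62703067-62703366, plus strand: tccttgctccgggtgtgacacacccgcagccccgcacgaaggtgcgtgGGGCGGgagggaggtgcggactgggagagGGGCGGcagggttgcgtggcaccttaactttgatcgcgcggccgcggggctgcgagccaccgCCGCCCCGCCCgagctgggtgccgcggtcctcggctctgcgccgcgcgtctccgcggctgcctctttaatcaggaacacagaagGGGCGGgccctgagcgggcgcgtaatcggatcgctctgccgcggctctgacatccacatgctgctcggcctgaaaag
Nrp1, chr8:128358823-128359122, plus strand: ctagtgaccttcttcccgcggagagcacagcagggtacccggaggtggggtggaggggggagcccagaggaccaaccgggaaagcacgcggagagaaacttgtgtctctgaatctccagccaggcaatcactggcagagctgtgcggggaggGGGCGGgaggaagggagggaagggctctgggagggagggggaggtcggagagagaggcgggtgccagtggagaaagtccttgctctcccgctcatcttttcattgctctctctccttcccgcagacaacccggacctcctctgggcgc
Egfl7, chr2:26583615-26583914, plus strand: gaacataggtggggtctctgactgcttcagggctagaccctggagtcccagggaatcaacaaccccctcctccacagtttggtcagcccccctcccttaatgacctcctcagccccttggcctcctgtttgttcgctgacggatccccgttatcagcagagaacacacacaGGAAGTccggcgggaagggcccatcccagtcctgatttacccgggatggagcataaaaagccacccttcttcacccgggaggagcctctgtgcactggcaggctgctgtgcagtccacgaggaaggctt

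The Flt1 window held all 4 motifs, with TGACGTCA starting at -81, GGAAGT at -52 and TATAAA at -31 relative to the start site, and 3 GC boxes. The Nrp2 window held 5 GC boxes and the Nrp1 window 1 GC box, and neither held the other 3 motifs. The Egfl7 window shown held 1 GGAAGT at -79. Of the other Egfl7 windows, the one at the most upstream start held 2 GGAAGT and no GC box, and the most downstream one 4 GC boxes. Erg also differed, and its windows are not printed. The most upstream Erg window held 1 GC box at -111, the middle one 1 TATAAA at -46, and the most downstream one none of the 4. The Kdr window held 1 GGAAGT and 2 GC boxes, and the Tek window none of the 4. These matches describe letters, and no binding was measured here.

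The 2 neuropilins moved in opposite directions. Nrp2 (mm8 chromosome 1, 62752831 to 62752890) read 4.21 in KO-labelled ventricle, 4.34 in KO-labelled aorta and 4.07 in KO-labelled atrium, against 1.72, 2.37 and 3.60 in WT-labelled ventricle, aorta and atrium, and 4.72 and 4.90 in C2C12. The KO-labelled samples lay close together, and the WT-labelled atrium came nearest to them. The means were 4.20 ± 0.14 in KO-labelled samples and 2.57 ± 0.95 in WT-labelled samples (SD, n = 3 each), a difference of 1.64 (SE 0.47, adjusted p = 0.0440, and with the slide block 1.82 at an adjusted p of 0.370). The call of Nrp2 was lost when any 1 of KO ventricle, KO aorta, KO atrium, WT ventricle or WT aorta was left out (adjusted p up to 0.126), and without the filter on dim probes (0.0777). A further probe with an old synonym of Nrp2 (Npn2) is placed on chromosome 6 by the array design, away from the gene on chromosome 1. It was above background on 1 KO-labelled and 1 WT-labelled array and was set apart.

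Nrp1 is read by 3 probes on chromosome 8. The probe used for the gene (mm8, 131354463 to 131354522) read -2.15, -1.92 and -2.17 in KO-labelled ventricle, aorta and atrium, against 0.20, -0.25 and -0.93 in WT-labelled ventricle, aorta and atrium, and -1.67 and -1.70 in C2C12. All 3 KO-labelled samples were below all 3 WT-labelled samples, as were both C2C12 samples. The means were -2.08 ± 0.14 in KO-labelled samples and -0.33 ± 0.57 in WT-labelled samples (SD, n = 3 each), so Nrp1 fell by 1.75 (SE 0.30, adjusted p = 0.00764), a 3.37-fold difference, with a slide-blocked value of -1.78 (adjusted p = 0.172).

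The size of the Nrp1 difference depended on the probe. The most upstream one (131246199 to 131246258) read -3.66, -3.33 and -3.61 in KO-labelled ventricle, aorta and atrium, against 0.06, -0.13 and 0.49 in WT-labelled ventricle, aorta and atrium, and -3.54 and -3.50 in C2C12. That is a difference of -3.68 (SE 0.21, adjusted p = 0.00011) or 12.8-fold. The most downstream one (131388840 to 131388899) read -2.12, -1.75 and -1.94 in KO-labelled ventricle, aorta and atrium, against -0.30, -0.53 and -1.65 in the WT-labelled ones, a difference of -1.11 that was not called (SE 0.37, adjusted p = 0.0665). The upstream minus downstream value was -1.60 ± 0.07 in KO-labelled samples and 0.97 ± 1.01 in WT-labelled samples (SD, n = 3 each), a difference of -2.56 over 142641 bases. An exact two-sided permutation test over samples gave p = 0.1, the smallest that 3 against 3 samples allow. A secreted form of neuropilin-1, from a shortened transcript, is known, but whether these probes separate it was not tested.

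Erg was detected in the WT-labelled samples alone. The probe at mm8 chromosome 16, 95468434 to 95468493, read -2.32 in ventricle, -3.33 in aorta and -3.98 in atrium of the WT-labelled samples, all well above background. It was not well above background on any of the 5 KO-labelled or 3 C2C12 arrays. Erg was at least 3.36-fold lower in KO-labelled than in WT-labelled samples (adjusted p = 0.00164). The measured means were -7.28 ± 0.45 in KO-labelled samples and -3.21 ± 0.83 in WT-labelled samples (SD, n = 3 each), the slide-blocked difference was -3.52 (adjusted p = 0.0964), and the call was lost with another background correction (normexp, -0.81, adjusted p = 0.250). The second Erg probe, 713 bases upstream on the minus strand, was above background on no array, so the probes of this gene disagreed.

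Egfl7 is read by 1 probe, at mm8 chromosome 2, 26414466 to 26414525. It read -1.24, -0.60 and -1.04 in KO-labelled ventricle, aorta and atrium, against 1.58, 1.12 and 0.01 in WT-labelled ventricle, aorta and atrium, and -1.15 and -0.88 in C2C12. Every array detected it, and the KO-labelled samples were all below the WT-labelled ones. The means were -0.96 ± 0.33 in KO-labelled samples and 0.90 ± 0.81 in WT-labelled samples (SD, n = 3 each), so Egfl7 fell by 1.87 (SE 0.42, adjusted p = 0.0213), a 3.65-fold difference, with a slide-blocked value of -1.60 (adjusted p = 0.384). The call was lost when KO ventricle, KO atrium, WT ventricle or WT aorta was left out (adjusted p up to 0.0764).

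Egfl7 also hosts miR-126, a microRNA abundant in endothelium, and its mature sequence is printed to show what the locus carries besides the protein. The array measured mRNA and not microRNA, so no value belongs to it. In RefSeq's GRCm38.p6 it lies at chr2:26591402-26591423 on the plus strand, inside Egfl7 (26581083 to 26592682), and capitals mark the seed, bases 2 to 8.
mmu-miR-126a-3p: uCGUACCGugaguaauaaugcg

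The 5 tested members did not overlap between KO-labelled and WT-labelled samples, so the 3 regions had to give the same sign. That holds for the 49.2% of all genes without overlap, and the values by region are a description. Flt1 was higher in KO-labelled than in WT-labelled ventricle by 4.08, in aorta by 6.45 and in atrium by 3.56. Nrp2 was higher by 2.48 in ventricle, 1.97 in aorta and 0.46 in atrium. Nrp1 was lower, at -2.35 in ventricle, -1.66 in aorta and -1.24 in atrium, and Egfl7 was lower, at -2.82 in ventricle, -1.72 in aorta and -1.06 in atrium. The Erg differences were -5.38, -3.99 and -2.84 in ventricle, aorta and atrium, with the KO-labelled side not above background, so they are not exact sizes. For Nrp2, Egfl7 and the Nrp1 probe used for the gene the atrium gave the smallest difference and the ventricle the largest. The most upstream Nrp1 probe did not follow that order, at -3.73 in ventricle, -3.20 in aorta and -4.10 in atrium, and each region rests on 1 sample of each genotype.

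Differences between regions, with genotype as a second term, were called for none of the 5 members (F test, adjusted p 0.807 to 0.945). Over all 15002 genes, 0% passed after adjustment with limma, and 720 genes (4.8%) had an unadjusted p under 0.05. Within the KO-labelled samples Flt1 was 2.25 higher in aorta and 1.09 higher in atrium than in ventricle. Within the WT-labelled samples the atrium was 1.61 above the ventricle and the aorta -0.12 from it. Each such value compares single samples, and position on the slide cannot be told apart from region.

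No tested member was called between KO-labelled progenitors and C2C12. The count was 0 of 5, against 1.25% of 15805 genes, and the lowest unadjusted p of a member probe was 0.238 with limma. With the slide block the share over all genes was 0.171%. Flt1 averaged 0.87 ± 1.12 in KO-labelled samples (n = 3) and 1.58 ± 0.42 in C2C12 (n = 2), a difference of -0.71 (SE 0.74, adjusted p = 0.800). Nrp1 differed by -0.40 (SE 0.31, adjusted p = 0.696), Nrp2 by -0.61 (SE 0.48, adjusted p = 0.704) and Egfl7 by 0.05 (SE 0.44, adjusted p = 0.988). For Nrp2 and the Nrp1 probe used for the gene, the KO-labelled samples all lay below both C2C12 samples. For Flt1 and Egfl7 the groups overlapped, and Erg was below background in both groups. At the most upstream Nrp1 probe the groups overlapped too, with a difference of -0.01. A p that misses the threshold does not show that the levels were equal.

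On the same slides the KO-labelled and C2C12 values could be set side by side directly. Flt1 in KO-labelled arrays lay -2.16 to 0.06 from C2C12 on slide 1 and -2.08 to 0.20 from C2C12 on slide 3. In WT-labelled arrays it lay -5.74 to -4.00 from C2C12 on slide 2. Egfl7 lay -0.08 to 0.55 from C2C12 on slide 1 and -0.12 to 0.54 on slide 3 in KO-labelled arrays, and 0.90 to 2.47 from C2C12 on slide 2 in WT-labelled arrays. Nrp2 lay -0.52 to -0.42 and -0.69 to -0.35 from C2C12 on slides 1 and 3 in KO-labelled arrays, and -3.18 to -1.30 on slide 2 in WT-labelled arrays. The KO-labelled ranges of these 3 genes thus stayed nearer to C2C12 on their own slides than the WT-labelled ranges did. For Nrp1 this depended on the probe. The probe used for the gene lay -0.39 to -0.29 and -0.58 to -0.21 from C2C12 on slides 1 and 3 in KO-labelled arrays. In WT-labelled arrays it lay 0.77 to 1.90 from C2C12 on slide 2. The most upstream probe lay -0.20 to 0.11 and -0.04 to 0.33 from C2C12 on slides 1 and 3 in KO-labelled arrays. Its WT-labelled values lay 3.37 to 3.99 from C2C12 on slide 2. The most downstream probe lay -0.66 to -0.36 and -0.80 to -0.37 in KO-labelled arrays, and -0.13 to 1.21 in WT-labelled arrays.

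WT-labelled progenitors and C2C12 differed in the 5 members that passed the filter, against 27% of 15805 genes (13.8% higher and 13.2% lower). Erg passed it through its WT-labelled arrays alone and so had to differ here too, with and without the block. This comparison shares its C2C12 samples with the one before and its WT-labelled samples with the one between genotypes. Nrp1 was higher in WT-labelled samples by 1.36 (SE 0.31, adjusted p = 0.0169), Egfl7 by 1.92 (SE 0.44, adjusted p = 0.0180) and Erg at least 5-fold (adjusted p = 0.000651). In the fit of every probe, the most upstream Nrp1 probe differed by 3.67 (adjusted p = 4.25e-05). The most downstream one differed by 0.62 and was not called (adjusted p = 0.271). Flt1 was lower, at -5.41 (SE 0.74, adjusted p = 0.00211), and Nrp2 was lower, at -2.25 (SE 0.48, adjusted p = 0.0139). With the slide block, 2 members were still called, against 14.5% of all genes: Flt1 at -5.12 (adjusted p = 0.0231) and Erg at 4.37 (adjusted p = 0.00924). The others were then Nrp1 1.37 (adjusted p = 0.0886), Nrp2 -2.34 (adjusted p = 0.0695) and Egfl7 1.79 (adjusted p = 0.110).

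**Figure D4:**
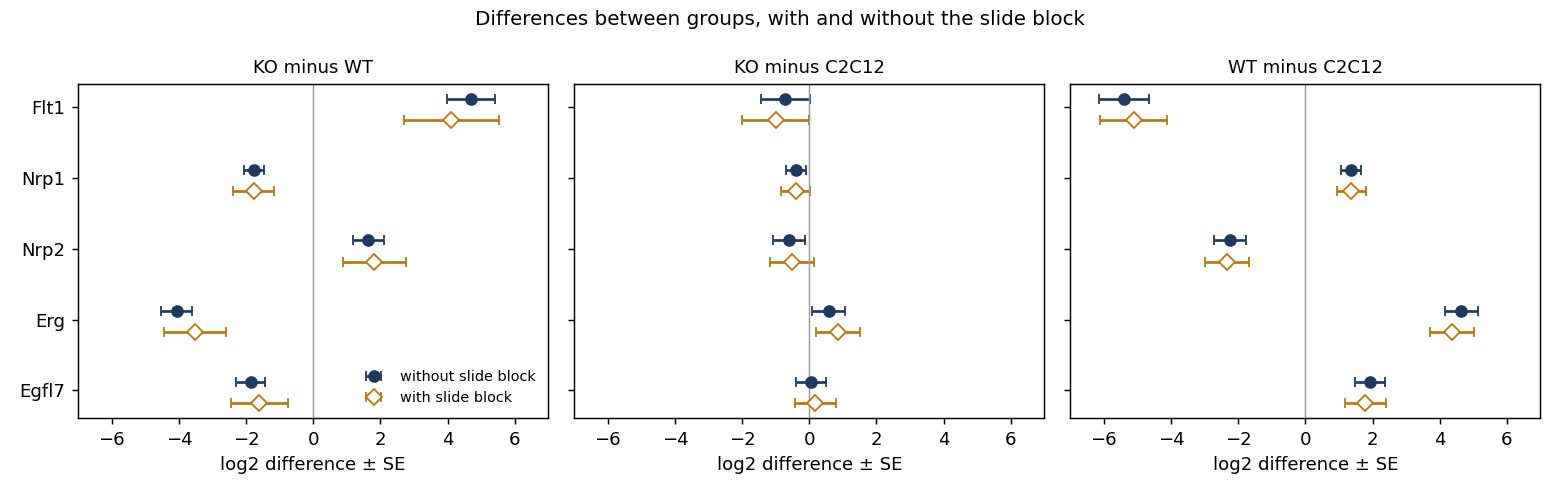
Log2 differences ± SE (horizontal axis) of Flt1, Nrp1, Nrp2, Erg and Egfl7 for KO minus WT, KO minus C2C12 and WT minus C2C12; filled circles are without and open diamonds with the slide block. Signs are the same with and without the block in each panel, and KO minus C2C12 lies at most 0.71 from 0 without the block; values of Erg in the KO and C2C12 groups are at background.

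Ligands of these receptors were tested as a list of 5, all of them detected in every group. Between KO-labelled and WT-labelled samples 2 were higher and 1 was lower, with a median difference of 0.66 beside -0.06 over all genes. Of all genes, 29.7% were called in this comparison (13.7% higher and 16.1% lower). Pgf, placental growth factor and a ligand of FLT1, read 0.41 to 0.55 in KO-labelled samples, against -4.03 to -2.71 in WT-labelled samples, and 0.46 to 0.85 in C2C12, and the difference was 3.75 (SE 0.34, adjusted p = 0.000725, and with the slide block 4.14 at an adjusted p of 0.0244). Vegfa, the main ligand of KDR, read 3.06 to 3.74 in KO-labelled samples, against 1.07 to 2.27 in WT-labelled samples (difference 1.48, SE 0.38, adjusted p = 0.0307, and with the slide block 1.22 at an adjusted p of 0.463). Vegfd, which in mouse binds FLT4, was lower in KO-labelled samples (-0.82 to 0.23) than in WT-labelled samples (1.21 to 1.74), by -1.87 (SE 0.30, adjusted p = 0.00646, slide-blocked adjusted p = 0.219). Vegfb, a ligand of FLT1, read 2.40 to 2.66 in KO-labelled and 2.54 to 3.096 in WT-labelled samples, and Vegfc, a ligand of FLT4, read 1.70 to 2.42 in KO-labelled and 0.29 to 3.12 in WT-labelled samples. Neither was called (adjusted p = 0.236 for Vegfb and 0.538 for Vegfc). In KO-labelled samples against C2C12, 0 of the 5 were called, where 1.25% of all genes were.

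Class 3 semaphorins and plexins, the second ligand family of the neuropilins and its signalling receptors, were all tested. Of 12 genes 5 were higher and 2 lower in KO-labelled than in WT-labelled samples, with a median of 0.27, where 29.7% of all genes were called. Among the higher ones, Sema3d, Sema3e and Plxna4 were above background on no WT-labelled array. They passed the filter through KO-labelled arrays alone, so the count over the list is a description. Sema3e, which signals through plexin D1, read 1.37 to 2.36 in KO-labelled samples and was above background on no WT-labelled array, so the difference was at least 106-fold (adjusted p = 5.36e-05, slide-blocked adjusted p = 0.0034). Sema3d was at least 2.25-fold higher (adjusted p = 0.0071), a call that ended with the slide block (adjusted p = 0.332). Sema3f, a ligand of NRP2, was lower by -4.09 (SE 0.47, adjusted p = 0.00179, and with the slide block -3.24 at an adjusted p of 0.126), at -4.62 to -3.71 in KO-labelled samples against -0.97 to 0.73 in WT-labelled samples. Plxna1, a co-receptor of the neuropilins, was lower by -1.0 (adjusted p = 0.00928), a call that also ended with the block (adjusted p = 0.142). Between KO-labelled samples and C2C12, 1 of the 12 was called, where 1.25% of all genes were. It was Plxna4, a plexin that pairs with the neuropilins (-1.75, adjusted p = 0.0195, and 0.132 with the slide block), named after its value was seen.

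Of the angiopoietin and Tie genes, 2 were tested between the genotypes. Angpt1, the activating ligand of TEK, read -1.02 to -0.24 in KO-labelled samples against -4.04 to -3.28 in WT-labelled samples, a difference of 3.20 (SE 0.30, adjusted p = 0.000791, and with the slide block 3.71 at an adjusted p of 0.0224). C2C12 read -0.43 to 0.08. Its receptor Tek was detected in neither genotype, and Tie1 was above background on no array. Between KO-labelled samples and C2C12, 1 of 3 tested genes was called, where 1.25% of all genes were. It was Angpt4, a ligand of TEK, named after its value was seen (at least 5.23-fold lower, adjusted p = 0.0413, and 0.253 with the slide block). Angpt4 was above background on 0 KO-labelled, 1 WT-labelled and 3 C2C12 arrays. It thus passed the filter only with its C2C12 arrays, and its p-value describes the fit and supports nothing further.

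Endothelial transcription factors showed the relatives of Erg. Of 20 genes 12 were tested, and 3 were higher and 3 lower in KO-labelled than in WT-labelled samples (median -0.38), where 29.7% of all genes were called. Fli1 and Tal1, like Erg, passed the filter through the WT-labelled arrays alone. Fli1, the closest ETS relative of Erg, was above background on no KO-labelled or C2C12 array and read -0.69 to 1.05 in WT-labelled samples, which made it at least 29.7-fold lower in KO-labelled samples (adjusted p = 0.000277, slide-blocked adjusted p = 0.0263). Tal1, a regulator of blood and endothelial development, was likewise detected in WT-labelled samples alone (-1.89 to -1.03) and at least 10.3-fold lower in KO-labelled samples (adjusted p = 0.000135, slide-blocked adjusted p = 0.00981). Hhex, a homeobox factor of endoderm and early endothelium, was at least 6.81-fold higher in KO-labelled samples (adjusted p = 0.000266, slide-blocked adjusted p = 0.0118), and Ets2 was higher by 2.20 (adjusted p = 0.00187, and 0.0526 with the slide block). Etv2, Lmo2, Sox7, Sox18, Hey2, Prox1 and Epas1 were above background on no array.

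Relatives of the junction genes were tested for 8 of 10 genes, with 3 higher and 1 lower (median 0.11), where 29.7% of all genes were called. F11r (JAM-A), a tight junction protein, read 1.61 to 3.68 in KO-labelled samples and was above background on no WT-labelled array, which made it at least 160-fold higher in KO-labelled samples (adjusted p = 0.000125, slide-blocked adjusted p = 0.00604). Jam2, of the same family as ESAM, read 2.66 to 2.90 in KO-labelled samples against -6.72 to -4.19 in WT-labelled samples, where 1 of 3 arrays was above background (adjusted p = 0.000392, slide-blocked adjusted p = 0.02). Cgnl1, paracingulin, was lower by -2.61 (SE 0.21, adjusted p = 0.000479, and with the slide block -2.55 at an adjusted p of 0.026). Of 15 signalling genes downstream of VEGF receptors, Nos3 (endothelial nitric oxide synthase) and the adaptor Nck1 were higher, the phospholipase gene Plcg1 was among 2 that were lower, and the median was 0.34. The share called, 26.7%, was near the 29.7% of all genes. None of these 3 named calls held with the slide block (adjusted p = 0.182 for Nos3, 0.254 for Nck1 and 0.689 for Plcg1) or without the filter on dim probes (0.0729 for Nos3, 0.171 for Nck1 and 0.178 for Plcg1). Plcg1 was also lost with median scaling (0.146), quantile normalization (0.0535) and normexp (0.134), and Nck1 with normexp (0.293).

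**Figure D5:**
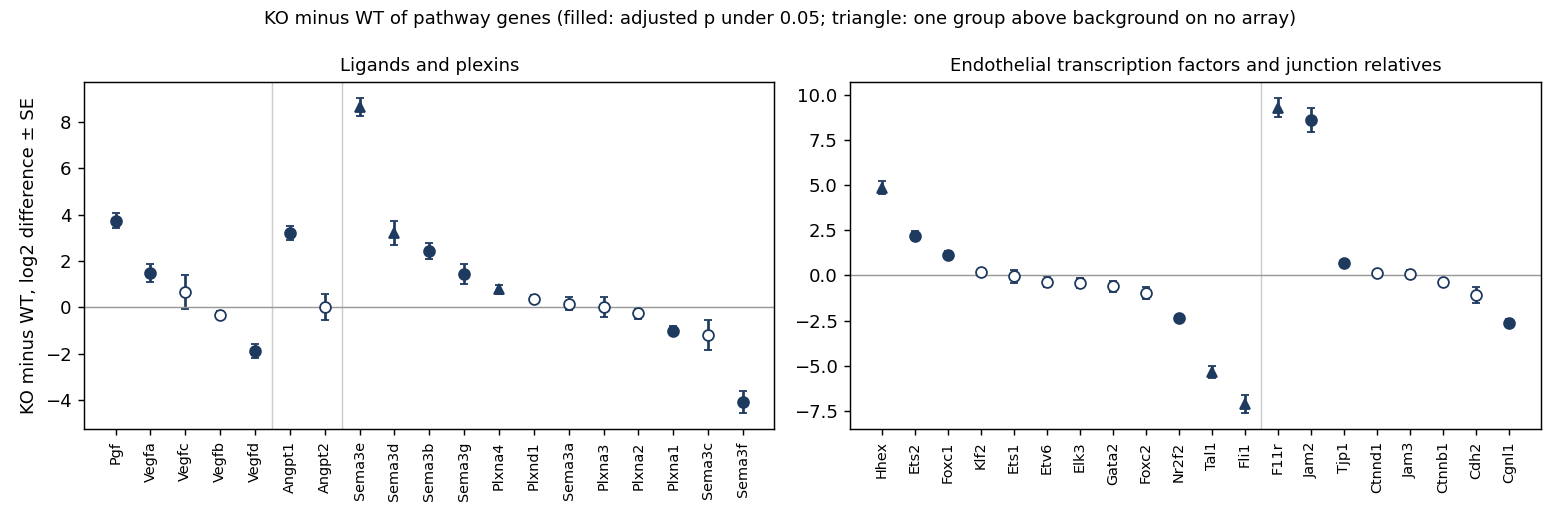
KO minus WT log2 differences ± SE (vertical axis) of the tested genes of 5 lists, one column per gene: VEGF ligands, angiopoietins, and semaphorins with plexins on the left, endothelial transcription factors and junction relatives on the right, divided by vertical lines. Filled symbols have adjusted p under 0.05, and triangles, among them Sema3e, Hhex, Fli1 and F11r, have a group above background on no array, so that their height is not an exact size.

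The genes most like each member were looked for among 8894 genes with a range of at least 1 log2 unit over the 8 samples. Since 3 groups divide these samples, many genes share a pattern, and the correlations describe it without a test. Flt1 was most like Foxs1 (Pearson r = 0.996), Abcc1 (0.995) and Smim11 (0.992). Foxs1 also kept the order aorta, atrium, ventricle in KO-labelled samples, at 2.36, 1.90 and 0.99. Nrp1 was most like a transcript that the array names by an accession alone (0.994) and Ehmt2 (0.992), and Nrp2 like Septin10 (0.989), Fkbp14 (0.984) and Ifi203 (0.984). Erg was most like Mycn (0.998), Hoxd4 (0.998) and Clmn (0.998), which also read far below their WT-labelled values in KO-labelled and C2C12 samples. There they read -8.11 to -6.59, below the dimmest signal called well above background on any array (-6.41), and Erg was not above background either. In those samples the likeness is thus between background readings. Egfl7 was most like a probe target without a gene symbol (0.999), Zmynd8 (0.988) and Slc12a5 (0.988).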

How the data were processed

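The 10 genes and all gene lists were chosen with earlier results of these data known. The authors deposited spot intensity values from the scanner, and the submitters' processing notes name Agilent Feature Extraction 9.5.3.1. Background and spatial trends were subtracted and no scaling between arrays was done, per the file headers. A series-wide table deposited beside them has log2 values, equal within 0.01 to log2 of the scanner values for 99.88 to 99.95% of probes (column medians 5.446 to 5.77), so no further scale, centring or direction is unknown.

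Control spots (1639 of 45018) and spots marked as outliers (39 to 120 per array) were left out, no spot was saturated, and repeated spots were averaged. Of 41174 probes, 53 lacked a usable spot on some array. Names were updated with a RefSeq table (assembly GRCm38.p6) for 24348 probes by accession, 6293 by symbol and 2419 by synonym, and 8061 kept the array's name. Positions of probes come from the design of the array (build mm8, per the file headers).

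Processed signals were put on the log2 scale, and the array's own 75th percentile was subtracted. The near-identical arrays had differences of 0.583 to 0.695 times the spot noise, and the ratio of other pairs was 2.84 or more. A probe was kept if 3 or more of the arrays fitted had it well above background, and the probe with the highest mean stood for its gene. Tests used limma 3.58.1 in R 4.3.3 (lmFit, eBayes), with Benjamini-Hochberg adjustment over all genes and a call at adjusted p under 0.05. The 6 heart samples entered the fit of KO with WT, and all 8 samples the fits with C2C12. The script was tested on simulated data. "At least N-fold" sets the mean of the brighter group against, in the dim group, the mean over arrays of the probe's signal or, where that is lower, of the dimmest signal well above background on the array. A gene's slide-blocked value uses signals as read, also near background. A marker list's summed level adds, over its genes, the signal divided by the array's 75th percentile.

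Named were the 10 genes, all VEGF ligands, the 2 called genes with the largest difference in each direction of each pathway list, and the 3 genes most correlated with each called member, except for a few results not reported here. Alternatives covered scaling, background correction, filters, probes, arrays, slide and region blocks, the samples fitted, and leaving out each sample. The number of arrays limits the precision. Further tools were Python 3.11.15, pandas 2.3.3, numpy 2.4.6 and, for figures, matplotlib 3.10.9.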

Additional observations from a re-analysis of the deposited data

How the results depend on the processing

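The labels carry no replicate numbers, and the KO and WT samples could be paired by region alone, which is the region block and called 3647 genes. For KO with WT, 4461 genes were called, against 2793 with normexp background correction and 891 with the slide block. Of the 5 tested members, 2 were higher, against 1 without the filter on dim probes, with a filter on every array and with the region block (Nrp2 adjusted p = 0.0777 without the filter and 0.0657 with the region block), and 0 with the slide block. The filter on every array left Flt1 and Erg untested. The count of lower members was 3, against 0 with the slide block. For KO with C2C12, 198 genes were called, against 45 with normexp, 99 without the filter, 60 with the filter on every array, 1629 with every array as its own sample and 27 with the slide block. For WT with C2C12, 4265 genes were called, against 2508 with normexp, 6661 with every array as its own sample and 2286 with the slide block. There the higher members were 3, against 1 with normexp, with the slide block and with only the 2 groups fitted, and the lower members were 2, against 1 with the filter on every array, the slide block and only the 2 groups. Between regions 0 genes were called, against 123 with every array as its own sample. Leaving out 1 sample gave 2643 to 5871 genes for KO with WT (higher members 1 to 2, lower members 1 to 3), 13 to 131 for KO with C2C12 (members 0) and 2273 to 5624 for WT with C2C12 (higher members 0 to 2, lower members 1 to 2). In the KO with WT fits Flt1 and Nrp1 were called whichever sample was left out (adjusted p at most 0.0249 and 0.0359). Erg was called without each KO sample (at most 0.00821) and was untested without any WT sample, since too few arrays then detected it. The sign turned for Erg in KO with C2C12 with quantile normalization (-0.0051, both groups at background) and for Egfl7 in KO with C2C12 without KO replicate 2 (-0.13) or C2C12 replicate 1 (-0.08), with a range of -0.13 to 0.19 over the samples left out, none of them called. In WT with C2C12 Erg was 1.04 (adjusted p = 0.218) and Nrp1 1.15 (0.0525) with normexp, and the calls of Nrp1, Nrp2 and Egfl7 were lost without either C2C12 sample, and those of Nrp1 and Egfl7 without WT aorta (adjusted p up to 0.108). The median difference of all genes in KO with WT was -0.06 with the 75th percentile and 0.05 with median scaling, and no sign or call of a member turned on it. The cause of these changes was not tested.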

Other observations

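Markers of other cell types were summed in the same way, and their levels in KO-labelled samples were above, below or overlapping those in WT-labelled samples. Each sum follows the brightest genes of its list. The counts of called markers stand beside 29.7% of all genes called between these groups (13.7% higher and 16.1% lower). The summed level of 8 pericyte markers was 25.63 to 30.98 times the 75th percentile in KO-labelled samples, 8.439 to 13.1 in WT-labelled samples and 50.72 to 50.83 in C2C12, and 4 of 5 tested were higher in KO-labelled samples. Anpep, an aminopeptidase that marks pericytes, read 0.92 to 1.82 in KO-labelled samples against -5.87 to -5.135 in WT-labelled samples, where 1 of 3 arrays was above background (slide-blocked 7.06). The 6 smooth muscle markers summed to 150.4 to 298.5 in KO-labelled samples, 30.28 to 163 in WT-labelled samples and 304 to 325.8 in C2C12, with 2 of 5 tested higher. The 6 cardiomyocyte markers summed to 19.04 to 40.63 in KO-labelled samples, 2.43 to 6.375 in WT-labelled samples and 22.78 to 49.17 in C2C12. This sum follows its brightest gene, Tnnt2 (mean 4.77 in KO-labelled and 1.70 in WT-labelled samples). Of 3 tested, 2 were higher and 1, Nppa, was lower in KO-labelled samples (-2.26, adjusted p = 0.000392 with limma). Ryr2 and Pln were above background on no array.

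The 6 fibroblast markers summed to 72.99 to 81.14 in KO-labelled samples, 79.49 to 136.9 in WT-labelled samples and 81.26 to 92.34 in C2C12, and 1 was higher and 3 were lower of 5 tested. Thy1, among the lower ones, was above background on no KO-labelled array and so had to differ. The 6 blood and macrophage markers summed to 0.102 to 0.156 in KO-labelled samples, 1.105 to 2.244 in WT-labelled samples and 0.148 to 0.153 in C2C12. Lyz2, lysozyme of macrophages, was at least 44.9-fold lower in KO-labelled samples, while Ptprc, Adgre1 and C1qa were above background on no array. The 5 megakaryocyte and platelet markers summed to 0.379 to 0.426 in KO-labelled samples, 0.2151 to 0.2997 in WT-labelled samples and 0.331 to 0.503 in C2C12, and 1 of 2 tested was higher. Of 4 lymphatic endothelial markers only Pdpn was above background, and it was not called. Anpep, Tnnt2, Nppa, Thy1 and Lyz2 are named here after their values were seen. The part of the markers of these lists in the differences of the VEGF receptors was not tested.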
